A study of Mus musculus with 6 samples.

Results

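Solute carriers are membrane proteins that move sugars, amino acids, metals, ions, vitamins and metabolites across cell and organelle membranes, and their genes are named Slc, a family number, the letter a and a member number. The genes described here are the 177 of that name form whose mean over the 6 libraries was at least 1 TPM, out of 336 table rows with such a name and 54347 rows in all. The remaining 159 rows lay under this limit, 37 of them at 0 in every library. A further 47 Slc symbols with another letter or a suffix, such as the Slc35b genes, were not taken. The 177 genes belonged to 45 Slc families and were all protein coding in GENCODE M21.

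Most solute carriers do not hydrolyse ATP. They let a solute run down its own gradient, exchange one solute for another, or couple uptake to the inward gradient of sodium or protons. Microglia, the resident macrophages of the brain, use glucose carriers to feed glycolysis, monocarboxylate carriers to export lactate, and iron, copper and zinc carriers to handle metals from engulfed material. Carriers of endosomes and lysosomes return the products of digestion to the cytosol, and the Slc25 family works in the inner mitochondrial membrane.

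RNA came from primary microglia of C57BL/6 pups at postnatal day 2 to 3, 3 libraries from Plcg2+/+ mice and 3 from Plcg2-/- littermates, named here by genotype and replicate number. Plcg2 encodes phospholipase C gamma 2, a membrane lipid-cleaving enzyme that relays signals of immune receptors such as TREM2. Forebrain cells of both genotypes were grown as mixed glia in 10% serum, with the myeloid growth factor GM-CSF at 5 ng/mL, until the microglia were shaken loose on day 12 or 13. They then stood for 72 h or longer in 1% serum with 0.5 ng/mL GM-CSF. No label ties a replicate to an animal or culture of its own. The p-values therefore reflect the spread among these libraries alone, part of which could be technical. Y-linked levels, given below, differ within each genotype, so its 3 libraries do not all come from the same animals. Whether some of them do is not known. Values are TPM, a measure per transcript length that sums to the same total in every library, so how many reads lie behind each value is unknown. In these bulk cultures, fewer cells of a type and less RNA per cell cannot be told apart.

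Plcg2 itself stood at 45.2, 39.7 and 54.9 TPM in Plcg2+/+ and at 16.05, 16.7 and 16.07 TPM in Plcg2-/- libraries, a decrease of 1.45 ± 0.14 (SE) on the log2(TPM + 1) scale (limma adjusted p = 0.00141). Of 10 microglial markers, Csf1r, Trem2, C1qa, Itgam and Ptprc stood at 70.1 TPM or more in every library, while Cx3cr1 reached at most 2.92 and Tmem119 at most 1.47 TPM. Of the 9 tested, P2ry12 and Aif1 rose, and Itgam, Trem2 and Cx3cr1 fell (limma adjusted p between 0.000946 and 0.0333). Without Plcg2+/+ 1, without Plcg2-/- 1 and without Plcg2-/- 3, P2ry12 (limma adjusted p = 0.0606, 0.0786 and 0.0686), Trem2 (0.0548, 0.0636 and 0.0592) and Cx3cr1 (0.0610, 0.0679 and 0.0525) missed the threshold. Cx3cr1 also did so with the Y-linked covariate (limma adjusted p = 0.0536). Aif1 missed the threshold without Plcg2+/+ 1, Plcg2+/+ 2, Plcg2+/+ 3, Plcg2-/- 1 or Plcg2-/- 2, with no filter on low values, after median-of-ratios scaling, with quantile normalization, with a robust prior variance and with the Y-linked covariate (limma adjusted p = 0.0724, 0.0733, 0.0615, 0.133, 0.0912, 0.0874, 0.0616, 0.0651, 0.0669 and 0.0846). Summed markers of other cells ranged over 30.4 to 60.03 TPM in Plcg2+/+ and 41.3 to 58.4 TPM in Plcg2-/- for 8 astrocyte genes, and over 50.05 to 116 and 47.6 to 84.9 TPM for 8 oligodendrocyte lineage genes. Neuronal, endothelial and fibroblast sums stayed at or below 17.3 TPM. The 7 markers of other blood leukocytes summed to 17.7 to 75.01 TPM in Plcg2+/+ and 24.2 to 45.8 TPM in Plcg2-/-, nearly all of it S100a8, and Cd3e and Ly6g were at 0. The astrocyte sums are largely Aldoc and Aldh1l1, and Gfap and Aqp4 stayed at or below 5.15 TPM. Of these markers Aldh1l1 rose and Cspg4 and Flt1 fell. Aldh1l1 missed the threshold without Plcg2+/+ 1, Plcg2+/+ 2, Plcg2-/- 1 or Plcg2-/- 3 and with no filter on low values (limma adjusted p = 0.0938, 0.0929, 0.106, 0.0941 and 0.0719). The part of other cells in the results below was not tested. Summed Y-linked transcripts were 0.371, 107 and 112 TPM in Plcg2+/+ and 58.6, 0.783 and 0.994 TPM in Plcg2-/- libraries, so the sexes are not balanced between genotypes. Their part in the results was tested only as a covariate. Mitochondrially encoded transcripts took 13.6% to 17.3% of TPM in Plcg2+/+ and 5.00% to 8.68% in Plcg2-/-.

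Together the 177 solute carrier genes took 0.723%, 0.757% and 0.691% of TPM in Plcg2+/+ and 0.723%, 0.693% and 0.734% in Plcg2-/- libraries, so the genotypes overlapped in the total. Levels spanned 1 to 550 TPM, with 14 genes at a mean of 100 TPM or more, 103 between 10 and 100, and 60 below 10. The most abundant were Slc25a3, the mitochondrial phosphate carrier, at 550.3 TPM over the 6 libraries, Slc6a6, the taurine transporter, at 444 TPM, and Slc25a5, an ADP/ATP carrier, at 388 TPM. Slc11a1, a phagosomal metal transporter of macrophages, followed at 373 TPM.

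Genotypes were compared gene by gene over all 12652 genes with a mean of at least 1 TPM, and a gene is called at a limma adjusted p below 0.05. Of the 177 solute carriers, 20 were higher in Plcg2-/- microglia, 11.3% against a background of 15.6% of all tested genes, and 24 were lower, 13.6% against a background of 5.31%. In either direction 44 were called, 24.9% against 20.9%. All 3 values of one genotype lay above the 3 of the other for 40 members in the higher direction, 22.6% against 32.4% of tested genes, and for 45 in the lower direction, 25.4% against 10.9%. The median log2 difference of the members was -0.01, and that of all tested genes 0.19. After median-of-ratios scaling, which moved the median of all tested genes from 0.19 to -0.0045, 12 members were higher and 37 lower, against backgrounds of 7.71% and 7.85%. All 24 decreases on deposited TPM were among those 37, and the 12 increases were all among the 20. Of the 44 called members, 11 share exon bases with another gene, 7 of them with one at a mean of at least 1 TPM in a genotype. For 6 of the 7, Slc15a3, Slc16a6, Slc35a4, Slc43a2, Slc12a4 and Slc2a1, it lies on the opposite strand. One called member, Slc36a2, had a mean under 1 TPM in one genotype, and 7 members in all did.

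Leaving out Plcg2+/+ 1 gave 11 higher and 9 lower members. The counts were 13 and 11 when Plcg2+/+ 2 was dropped, 9 and 8 when Plcg2-/- 1 was, and 11 and 17 when Plcg2-/- 3 was. Dropping Plcg2+/+ 3 changed less, at 19 higher and 23 lower, as did dropping Plcg2-/- 2, at 22 and 18. Shares of all tested genes called in these smaller fits are not given here. A general loss of calls can therefore not be told from a loss particular to the carriers. Adding the Y-linked level as a covariate left 12 and 13, against backgrounds of 7.44% and 3.25%. The replicate number as a block gave 25 and 30, against backgrounds of 19.6% and 6.44%. With no filter on low values 16 and 13 of the members were called, against 4.65% and 1.9% of all 26346 rows fitted. Those rows include genes under 1 TPM, which the members by their limit do not, so these shares are not a like background. After rescaling TPM without mitochondrially encoded genes 16 were higher and 27 lower, against 9.68% and 6.35%. A set of 14 members was called in the same direction in the fit as reported and in each of the 19 others that tested them. These were Slc6a8, Slc22a4, Slc36a2, Slc1a5, Slc2a1, Slc41a2, Slc27a1 and Slc66a2, which were lower, and Slc9a9, Slc40a1, Slc25a22, Slc2a6, Slc43a2 and Slc25a12, which were higher. Slc36a2 was under the limit of 2 of those fits. Differences of at least 1 on the log2 scale were called for 5 members upward and 9 downward. Shares of all tested genes called in every fit, or called at this size, are not given here, so these counts have no background.

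**Figure D1:**
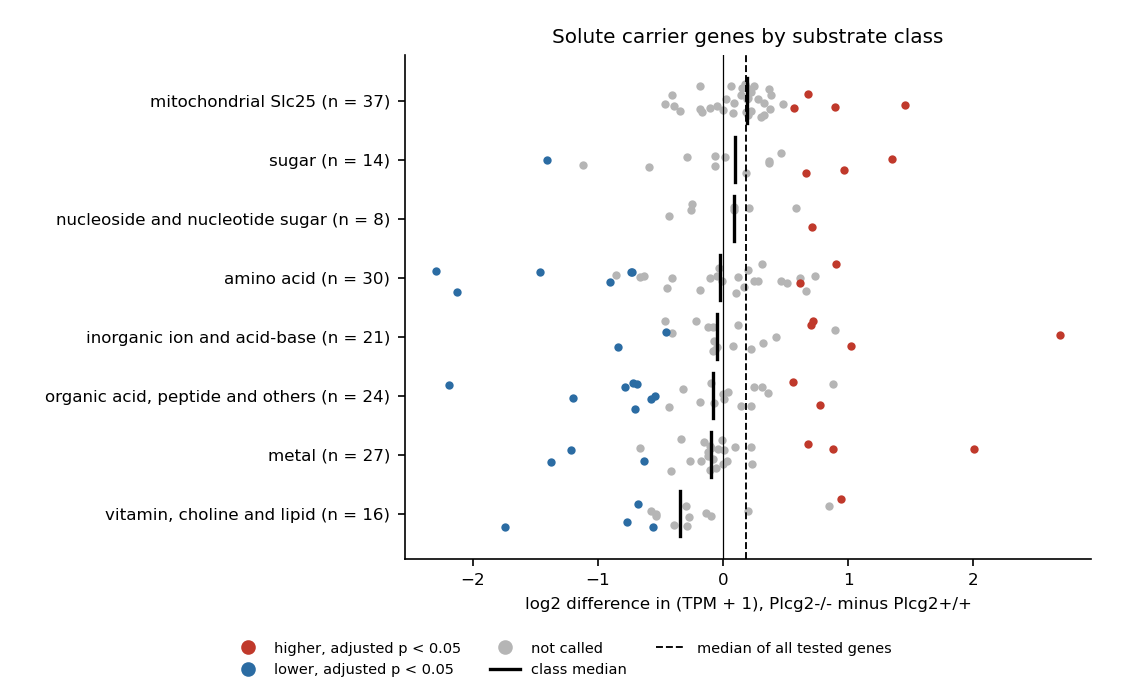
Log2 difference in (TPM + 1) between Plcg2-/- and Plcg2+/+ microglia (x axis) for the 177 solute carrier genes in 8 substrate classes (y axis). Each point is a gene, red where called higher, blue where called lower and grey where not called. The 37 Slc25 genes centre on the dashed median of all tested genes at 0.19, and the 16 vitamin, choline and lipid genes have the lowest class median, -0.34.

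**Figure D2:**
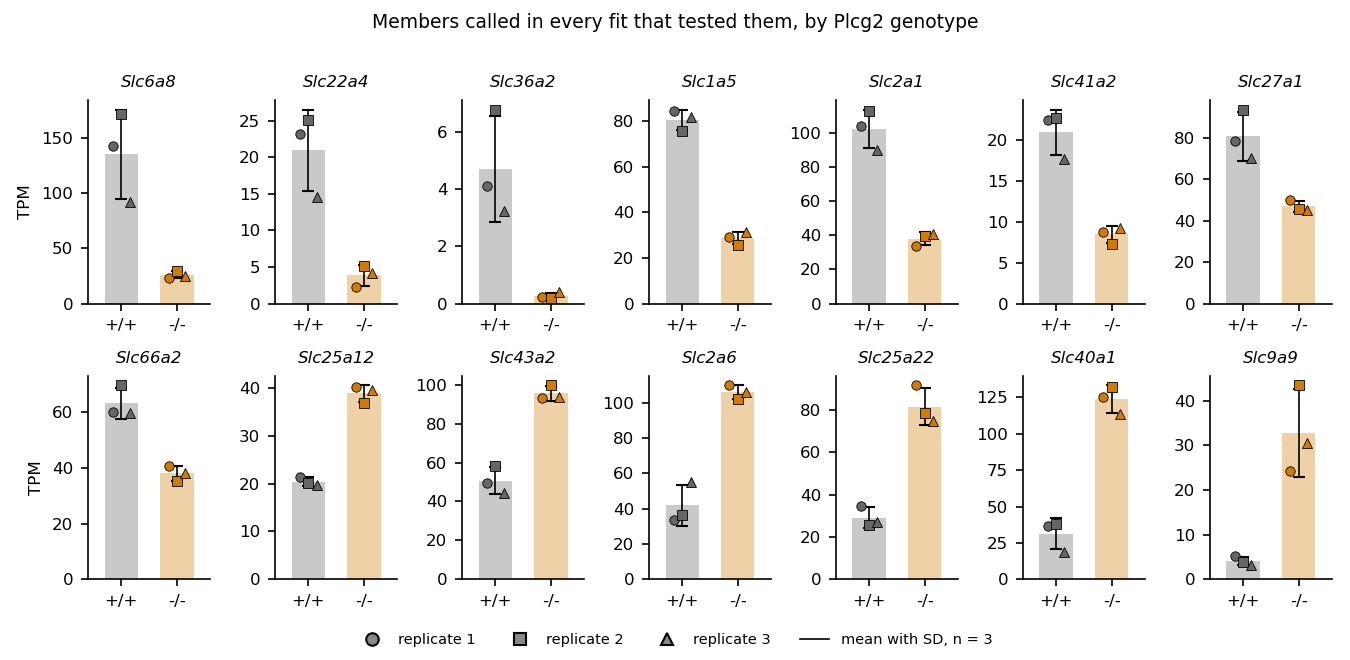
TPM of the 14 members called in every fit that tested them, by Plcg2 genotype (bars are means of 3 libraries, error bars SD, symbols single libraries by replicate number). In each panel the 3 Plcg2-/- values lie all above or all below the 3 Plcg2+/+ values, as for Slc9a9 at 3.27 to 5.19 TPM in Plcg2+/+ and 24.2 to 43.4 TPM in Plcg2-/-.

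Promoter sequences are shown for the 4 strongest or most contrasted of these genes that the RefSeq table holds, the 2 glucose carriers that moved in opposite directions, Slc2a1 and Slc2a6, and Slc9a9 and Slc22a4, which had the largest increase and, among matched members, the largest decrease. Each is the 250 bases before a RefSeq start of the gene, 5′ to 3′ on the gene's strand, from RefSeq on GRCm38.p6. Capitals mark matches to 4 motifs searched on both strands, CACGTG (an E-box), TGACTCA (AP-1), TGACNNNGC (the core of an antioxidant response element) and an interferon response core (GAAA and again GAAA after any 2 bases). The first overlaps none of the others in its letters, and TGACTCA and TGACNNNGC share their first 4 letters. The windows are chr4:119108495-119108744 (plus strand), chr2:27027999-27028248 (minus), chr9:94669642-94669891 (plus) and chr11:54028105-54028354 (minus).
Slc2a1: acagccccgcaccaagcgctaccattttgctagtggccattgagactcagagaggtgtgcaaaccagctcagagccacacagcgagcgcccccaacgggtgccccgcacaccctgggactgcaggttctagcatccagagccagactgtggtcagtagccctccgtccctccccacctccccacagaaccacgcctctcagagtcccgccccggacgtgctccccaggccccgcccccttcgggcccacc
Slc2a6: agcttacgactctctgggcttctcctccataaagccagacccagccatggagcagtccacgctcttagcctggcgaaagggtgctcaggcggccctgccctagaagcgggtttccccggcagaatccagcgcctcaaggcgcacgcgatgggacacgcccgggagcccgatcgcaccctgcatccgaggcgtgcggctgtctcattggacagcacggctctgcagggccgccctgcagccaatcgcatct
Slc9a9: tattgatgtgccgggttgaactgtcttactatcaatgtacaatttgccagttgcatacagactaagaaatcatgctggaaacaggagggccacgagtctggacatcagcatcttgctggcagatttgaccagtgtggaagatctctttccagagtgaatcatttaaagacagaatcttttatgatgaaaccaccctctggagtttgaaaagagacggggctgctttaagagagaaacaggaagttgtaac
Slc22a4: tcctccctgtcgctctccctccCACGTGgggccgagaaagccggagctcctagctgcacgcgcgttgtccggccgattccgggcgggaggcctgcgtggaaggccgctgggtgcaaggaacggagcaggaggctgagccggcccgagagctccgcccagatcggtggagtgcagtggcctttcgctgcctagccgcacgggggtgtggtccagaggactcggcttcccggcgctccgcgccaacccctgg

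The Slc22a4 window held 1 match, a CACGTG starting 228 bases before the start, and the other 3 windows held none of the 4 motifs. GC content was 66.4% for Slc2a1, 65.2% for Slc2a6, 71.2% for Slc22a4 and 42.8% for Slc9a9. RefSeq windows were matched for 129 of the 177 members and 30 of the 44 called. CACGTG was found in 13.0% of the 177 windows of these members and in 6.02% of all 32851 windows, by gene in 0 of 15 matched members that rose, 3 of 15 that fell (Slc16a1, Slc22a4 and Slc27a1) and 19 of 99 not called. TGACNNNGC was in 17.5% of member windows against 10.2% of all, by gene in 3 of 15 that rose and 3 of 15 that fell. TGACTCA was in 2.82% against 4.46%, and the interferon response core in 1.69% against 2.98%. A match describes the letters only and is not a binding site.

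Among the sugar carriers, the main glucose carrier of the plasma membrane fell and an intracellular relative rose. Of 14 members in the Slc2, Slc5, Slc37, Slc45 and Slc50 families, 3 rose and 1 fell, 28.6% called against the background of 20.9%. Classes here go by Slc family number, so they can hold carriers of other solutes, such as the urate carrier gene Slc2a9 in this one. Slc2a1 (ENSMUSG00000028645.11, GRCm38 chromosome 4, positions 119108711 to 119137983, plus strand), which encodes GLUT1, stood at 104, 113 and 90.1 TPM in the Plcg2+/+ and 33.6, 39.6 and 40.7 TPM in the Plcg2-/- cultures. Every Plcg2-/- value was under the lowest Plcg2+/+ value, and Slc2a1 fell by 1.40 ± 0.13 log2 units (SE; limma adjusted p = 0.00135). Slc2a6 (ENSMUSG00000036067.12, GRCm38 chromosome 2, positions 27021363 to 27027998, minus strand), whose product GLUT6 sits on lysosomal membranes, stood at 33.4, 36.7 and 55.3 TPM in the Plcg2+/+ and 109.7, 102 and 106 TPM in the Plcg2-/- cultures. The groups did not overlap, with the Plcg2-/- values within a narrow range, and Slc2a6 rose by 1.35 ± 0.19 log2 units (SE; limma adjusted p = 0.00517).

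Slc2a1 was thus the higher of the pair in Plcg2+/+ libraries and Slc2a6 the higher in each Plcg2-/- library, on the TPM scale. Slc2a9, which encodes a urate carrier, stood at 8.85, 6.401 and 7.52 TPM in the Plcg2+/+ and 18.5, 17.4 and 11.95 TPM in the Plcg2-/- cultures and rose by 0.97 ± 0.19 log2 units (SE; limma adjusted p = 0.01702). Slc37a1, a sugar phosphate exchanger gene, had 6.87, 10.04 and 8.58 TPM across Plcg2+/+ and 11.8, 16.1 and 14.2 across Plcg2-/- libraries and rose by 0.67 ± 0.17 log2 units (SE; limma adjusted p = 0.0370). Slc37a2, a relative abundant in macrophages, had 135, 135 and 88.1 TPM across Plcg2+/+ and 81.8, 79.7 and 70.7 across Plcg2-/- libraries and did not pass (limma adjusted p = 0.0617). Its groups did not overlap, and it passed without Plcg2+/+ 3, after median-of-ratios scaling, with quantile normalization, after rescaling without mitochondrially encoded genes, with the replicate block and with the block and median-of-ratios scaling together (limma adjusted p = 0.0108, 0.0450, 0.0339, 0.0454, 0.0284 and 0.0189). Slc45a3 also did not pass at 3.899, 7.14 and 2.18 TPM across Plcg2+/+ and 1.07, 1.803 and 1.13 across Plcg2-/- libraries (limma adjusted p = 0.0626), but did so without Plcg2+/+ 3, with the replicate block and with the block and median-of-ratios scaling together (limma adjusted p = 0.0254, 0.0281 and 0.02996). Slc50a1, which had 42.1, 38.2 and 45.5 TPM across Plcg2+/+ and 32.2, 39.5 and 31.1 across Plcg2-/- libraries (limma adjusted p = 0.158), passed as lower after median-of-ratios scaling and with quantile normalization (limma adjusted p = 0.0469 and 0.0390).

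Carriers of this class with little difference included Slc2a8, an intracellular glucose carrier gene, at 14.99 ± 1.65 in Plcg2+/+ and 14.3 ± 0.6799 TPM in Plcg2-/- cells (SD, n = 3 each; limma adjusted p = 0.737), and Slc37a4, the glucose 6-phosphate carrier gene of the endoplasmic reticulum, at 16 ± 1.35 in Plcg2+/+ and 15.3 ± 1.41 TPM in Plcg2-/- cells (limma adjusted p = 0.744). Slc2a3, which encodes GLUT3, was just above the limit at 0.941, 0.919 and 0.317 TPM across Plcg2+/+ and 0.862, 1.57 and 1.71 across Plcg2-/- libraries (limma adjusted p = 0.253). After median-of-ratios scaling 2 sugar carriers were higher and 3 lower. Without Plcg2+/+ 2, without Plcg2-/- 1 or with the Y-linked covariate 2 were called in all. Slc2a9 missed the threshold without Plcg2+/+ 2 or Plcg2-/- 1 and with the Y-linked covariate (limma adjusted p = 0.0614, 0.0805 and 0.0528). Slc37a1 missed the threshold without Plcg2+/+ 1, Plcg2+/+ 2, Plcg2+/+ 3, Plcg2-/- 1, Plcg2-/- 2 or Plcg2-/- 3, with no filter on low values, after median-of-ratios scaling, with quantile normalization, after rescaling without mitochondrially encoded genes and with the Y-linked covariate (limma adjusted p = 0.111, 0.0522, 0.0672, 0.0736, 0.0908, 0.116, 0.0870, 0.145, 0.142, 0.0884 and 0.0833).

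Of 6 monocarboxylate carriers of the Slc16 family 5 were called, 83.3% against a background of 20.9%, and they moved both ways. The lactate carrier genes Slc16a1 and Slc16a3, which encode MCT1 and MCT4, both fell. Slc16a3 (GRCm38 chromosome 11, positions 120948480 to 120960868, plus strand) stood at 37.7, 49.5 and 47.4 TPM in the Plcg2+/+ and 24.2, 26.7 and 30.1 TPM in the Plcg2-/- cultures and fell by 0.71 ± 0.14 log2 units (SE; limma adjusted p = 0.01799). Slc16a1 stood at 11.3, 10.2 and 11.1 TPM in the Plcg2+/+ and 5.497, 4.87 and 7.58 TPM in the Plcg2-/- cultures and fell by 0.78 ± 0.17 log2 units (SE; limma adjusted p = 0.0203). The genotypes did not overlap for either gene. Slc16a10, which carries aromatic amino acids, stood at 23.3, 23.1 and 23.1 TPM in the Plcg2+/+ and 11.6, 14.9 and 15.8 TPM in the Plcg2-/- cultures and fell by 0.69 ± 0.13 log2 units (SE; limma adjusted p = 0.0157), with Plcg2+/+ values nearly equal. In the other direction, Slc16a7, which encodes MCT2, had 13.4, 14.7 and 16.03 TPM across Plcg2+/+ and 22.1, 22.4 and 21.8 across Plcg2-/- libraries and rose by 0.56 ± 0.11 log2 units (SE; limma adjusted p = 0.0155). Slc16a6, a ketone body carrier gene, had 7.095, 8.09 and 7.44 TPM across Plcg2+/+ and 10.4, 15.6 and 15.4 across Plcg2-/- libraries and rose by 0.77 ± 0.17 log2 units (SE; limma adjusted p = 0.0239). Slc16a13 did not pass (limma adjusted p = 0.334).

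The decreases of Slc16a1, Slc16a3 and Slc16a10 were called after median-of-ratios scaling too, and the increases of Slc16a6 and Slc16a7 were not. Slc16a1 missed the threshold without Plcg2+/+ 1, Plcg2+/+ 2 or Plcg2-/- 1, with no filter on low values and with the Y-linked covariate (limma adjusted p = 0.0771, 0.0576, 0.0917, 0.0532 and 0.0514). Slc16a3 missed the threshold without Plcg2+/+ 2 or Plcg2-/- 1 and with the Y-linked covariate (limma adjusted p = 0.0603, 0.0797 and 0.0583). Slc16a10 missed the threshold without Plcg2+/+ 1, Plcg2+/+ 2 or Plcg2-/- 1 (limma adjusted p = 0.0623, 0.0526 and 0.0511). Slc16a7 missed the threshold without Plcg2+/+ 1, Plcg2-/- 1 or Plcg2-/- 3, after median-of-ratios scaling, with quantile normalization and with the block and median-of-ratios scaling together (limma adjusted p = 0.0606, 0.0716, 0.0573, 0.0631, 0.0882 and 0.0721). Slc16a6 missed the threshold without Plcg2+/+ 1, Plcg2+/+ 2, Plcg2+/+ 3, Plcg2-/- 2 or Plcg2-/- 3, with no filter on low values, after median-of-ratios scaling, with quantile normalization, after rescaling without mitochondrially encoded genes, with the block and median-of-ratios scaling together and with the Y-linked covariate (limma adjusted p = 0.0855, 0.0631, 0.0509, 0.0623, 0.0898, 0.05997, 0.0797, 0.0715, 0.0555, 0.0506 and 0.0698). Exons of Slc16a6 overlap those of Amz2 on the opposite strand, which had means of 19.6 TPM in Plcg2+/+ and 25.8 TPM in Plcg2-/-, and whether reads were counted by strand is not stated in the sources used.

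**Figure D3:**
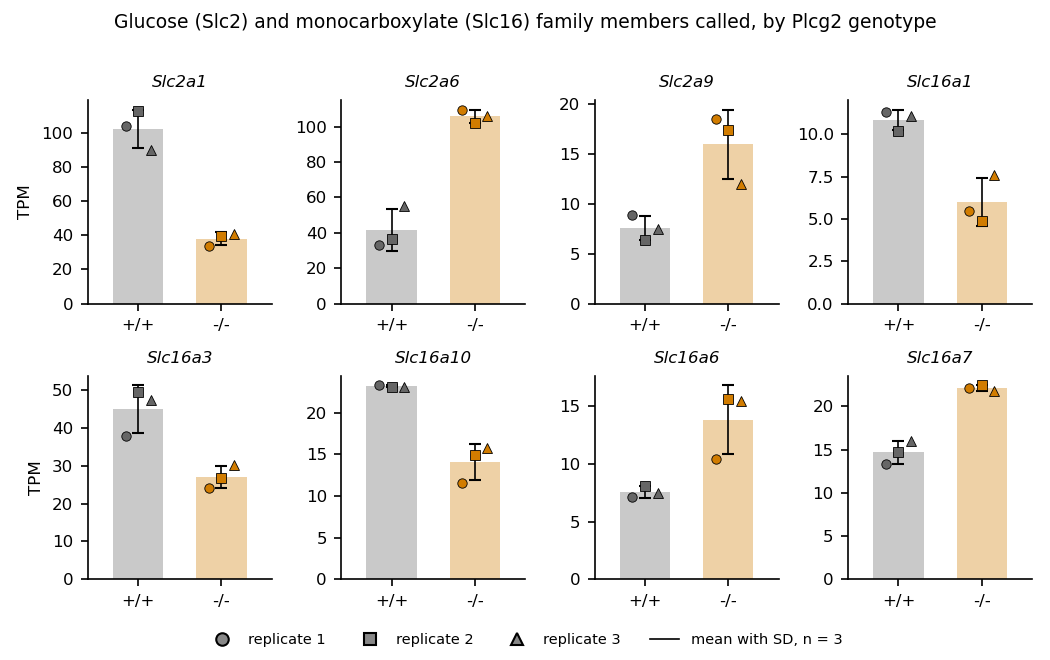
TPM of called Slc2 and Slc16 members by Plcg2 genotype (bars are means of 3 libraries, error bars SD, symbols single libraries). Slc2a1, Slc16a1, Slc16a3 and Slc16a10 are lower in all 3 Plcg2-/- libraries than in any Plcg2+/+ library, and Slc2a6, Slc2a9, Slc16a6 and Slc16a7 higher.

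Of 30 amino acid carriers, 6 fell and 2 rose, 26.7% called against the background of 20.9%. The largest decrease of all 177 genes was that of Slc6a8 (ENSMUSG00000019558.14, GRCm38 chromosome X, positions 73673150 to 73682502, plus strand), the creatine transporter. It stood at 142, 172 and 91.8 TPM in the Plcg2+/+ and 23.5, 29.6 and 25.1 TPM in the Plcg2-/- cultures, groups that lay far apart, and fell by 2.29 ± 0.23 log2 units (SE; limma adjusted p = 0.00166). Slc1a5 (GRCm38 chromosome 7, positions 16781340 to 16798274, plus strand), which encodes the glutamine and neutral amino acid exchanger ASCT2, stood at 84.5, 75.8 and 82.04 TPM in the Plcg2+/+ and 29.3, 25.8 and 31.2 TPM in the Plcg2-/- cultures. Values within each genotype were close, and Slc1a5 fell by 1.46 ± 0.11 log2 units (SE; limma adjusted p = 0.000922), the smallest adjusted p of the 177. Slc36a2 (GRCm38 chromosome 11, positions 55158470 to 55185077, minus strand), a proton-coupled carrier of small amino acids, had 4.095, 6.79 and 3.24 TPM across Plcg2+/+ and 0.217, 0.183 and 0.403 across Plcg2-/- libraries and fell by 2.13 ± 0.27 log2 units (SE; limma adjusted p = 0.00345). Its Plcg2-/- values were near 0, where the scale understates a change.

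Slc6a12, a betaine and GABA transporter gene, was abundant at 163, 242 and 159 TPM in the Plcg2+/+ and 83.9, 127 and 88.2 TPM in the Plcg2-/- cultures and fell by 0.90 ± 0.22 log2 units (SE; limma adjusted p = 0.0319). Slc7a6, a light chain gene of cationic amino acid exchange, had 15.3, 15.5 and 11.5 TPM across Plcg2+/+ and 6.73, 7.87 and 9.83 across Plcg2-/- libraries and fell by 0.73 ± 0.18 log2 units (SE; limma adjusted p = 0.0306). Slc7a4, which belongs to the same family, had 5.75, 6.04 and 5.78 TPM across Plcg2+/+ and 2.59, 3.85 and 3.03 across Plcg2-/- libraries and fell by 0.73 ± 0.16 log2 units (SE; limma adjusted p = 0.0213). The increases were those of 2 carriers of large neutral amino acids. Slc43a2 (GRCm38 chromosome 11, positions 75531694 to 75577575, plus strand) stood at 49.5, 58.1 and 44.6 TPM in the Plcg2+/+ and 93.1, 99.6 and 93.6 TPM in the Plcg2-/- cultures and rose by 0.91 ± 0.12 log2 units (SE; limma adjusted p = 0.00464). Slc7a8, the light chain gene for LAT2, had 25.6, 26.7 and 27.3 TPM across Plcg2+/+ and 35.9, 41.96 and 45.96 across Plcg2-/- libraries and rose by 0.61 ± 0.12 log2 units (SE; limma adjusted p = 0.0162). Neither gene overlapped between genotypes.

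The partner of these light chains, Slc3a2, which encodes the CD98 heavy chain, did not pass at 313, 383 and 293 TPM across Plcg2+/+ and 214, 278 and 249.5 across Plcg2-/- libraries (limma adjusted p = 0.0984), although each Plcg2-/- value was under each Plcg2+/+ value. Slc3a2 passed as lower with the block and median-of-ratios scaling together (limma adjusted p = 0.0277). The cystine and glutamate exchanger gene Slc7a11 had 37.2, 39.4 and 38.2 TPM across Plcg2+/+ and 15.3, 25.6 and 36.5 across Plcg2-/- libraries (limma adjusted p = 0.149), with 1 Plcg2-/- library close to Plcg2+/+. Slc7a5, the light chain gene for LAT1, stood just outside the threshold at 2.99, 2.54 and 2.53 TPM across Plcg2+/+ and 5.89, 4.23 and 3.97 across Plcg2-/- libraries (limma adjusted p = 0.0517) and passed with a pseudocount of 0.1, with a pseudocount of 0.5, with a constant prior variance and with the replicate block (limma adjusted p = 0.0473, 0.0498, 0.0435 and 0.0387). Slc38a2, a sodium-coupled glutamine carrier gene, had 99.1, 76.1 and 80.1 TPM across Plcg2+/+ and 122, 106 and 123 across Plcg2-/- libraries (limma adjusted p = 0.0518) and passed over genes with a mean of at least 5 TPM, with a robust prior variance and with the replicate block (limma adjusted p = 0.0459, 0.0493 and 0.0354). Slc7a7 had 26.96 ± 2.85 in Plcg2+/+ and 39.1 ± 8.08 TPM in Plcg2-/- cells (SD, n = 3 each; limma adjusted p = 0.0704), and Slc7a2, an arginine carrier gene, 24.7 ± 8.41 in Plcg2+/+ and 16.3 ± 9.54 TPM in Plcg2-/- cells (limma adjusted p = 0.288). Both passed with the replicate block (limma adjusted p = 0.0269 and 0.03395).

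The taurine transporter gene Slc6a6 stood at 483, 460.2 and 461 TPM in the Plcg2+/+ and 442, 320.2 and 495 TPM in the Plcg2-/- cultures, with overlapping groups (limma adjusted p = 0.477). Slc7a1, an arginine carrier gene, Slc36a1, a lysosomal amino acid exporter gene, and Slc38a9, a lysosomal arginine sensor gene, also overlapped (limma adjusted p = 0.9695, 0.364 and 0.874). None of the 7 Slc38 members was called, against the background of 20.9%. In 4 of them all Plcg2-/- values lay above all Plcg2+/+ values, as in 32.4% of all tested genes. With the replicate block 5 amino acid carriers were higher and 8 lower, after median-of-ratios scaling 1 and 7. Called amino acid carriers numbered 4 without Plcg2+/+ 1, and 5 without Plcg2+/+ 2, without Plcg2-/- 1, without Plcg2-/- 3 or with the Y-linked covariate. Slc6a12 missed the threshold without Plcg2+/+ 1, Plcg2+/+ 2, Plcg2-/- 1 or Plcg2-/- 3, with no filter on low values and with the Y-linked covariate (limma adjusted p = 0.0740, 0.0801, 0.125, 0.109, 0.0765 and 0.08097). Slc7a6 missed the threshold without Plcg2+/+ 1, Plcg2+/+ 2, Plcg2-/- 1 or Plcg2-/- 2 and with no filter on low values (limma adjusted p = 0.106, 0.103, 0.119, 0.0724 and 0.07402). Slc7a4 missed the threshold without Plcg2+/+ 1, Plcg2+/+ 2, Plcg2-/- 1 or Plcg2-/- 3, with no filter on low values and with the Y-linked covariate (limma adjusted p = 0.0694, 0.0681, 0.0812, 0.0736, 0.0688 and 0.0514). Slc7a8 missed the threshold without Plcg2+/+ 1 or Plcg2-/- 3, after median-of-ratios scaling, with quantile normalization, with the block and median-of-ratios scaling together and with the Y-linked covariate (limma adjusted p = 0.0653, 0.0592, 0.0665, 0.0994, 0.05997 and 0.0556).

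Of 27 metal carriers, 3 rose and 3 fell, 22.2% called against the background of 20.9%. The iron exporter gene Slc40a1 (ENSMUSG00000025993.10, GRCm38 chromosome 1, positions 45908068 to 45926523, minus strand), which encodes ferroportin, stood at 36.9, 37.9 and 18.96 TPM in the Plcg2+/+ and 125, 132 and 113 TPM in the Plcg2-/- cultures. The lowest Plcg2-/- value was far above the highest Plcg2+/+ value, and Slc40a1 rose by 2.01 ± 0.26 log2 units (SE; limma adjusted p = 0.00378). Other iron carriers did not move past the test. Slc11a1 had 418, 580.1 and 289.6 TPM across Plcg2+/+ and 229, 406 and 316 across Plcg2-/- libraries (limma adjusted p = 0.348), with groups that overlapped widely. Slc11a2, the divalent metal carrier that takes iron out of endosomes, had 67.8, 74.1 and 63.4 TPM across Plcg2+/+ and 66.8, 67.2 and 62.5 across Plcg2-/- libraries (limma adjusted p = 0.712). The heme carrier gene Slc48a1 had 106 ± 26.8 in Plcg2+/+ and 95.0 ± 6.91 TPM in Plcg2-/- cells (SD, n = 3 each; limma adjusted p = 0.6599). The transferrin receptor gene Tfrc, which is no Slc gene, rose from 15.02 ± 0.9596 to 41.4 ± 14.98 TPM (SD, n = 3 each; limma adjusted p = 0.0147). Tfrc missed the threshold without Plcg2+/+ 1 or Plcg2-/- 3 (limma adjusted p = 0.0618 and 0.0599). Steap3, an endosomal iron reductase gene, fell from 52.7 ± 11.02 to 20.3 ± 3.14 TPM (limma adjusted p = 0.00446). These 2 were the called genes among 12 of metal handling, 16.7% against 20.9%.

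Both copper carriers rose, against a background of 15.6% for increases. Slc31a2, a mainly endosomal copper carrier gene, stood at 111, 90.1 and 127 TPM in the Plcg2+/+ and 218, 194 and 188 TPM in the Plcg2-/- cultures and rose by 0.88 ± 0.15 log2 units (SE; limma adjusted p = 0.0104). Slc31a1, which encodes the copper importer of the cell surface, stood at 49.1, 43.1 and 45.4 TPM in the Plcg2+/+ and 82.4, 65.1 and 75.8 TPM in the Plcg2-/- cultures and rose by 0.68 ± 0.12 log2 units (SE; limma adjusted p = 0.0123). The 2 genes are neighbours on chromosome 4, at positions 62262562 to 62298411 and 62360727 to 62391769, both on the plus strand. In the other direction, the magnesium carrier gene Slc41a2 had 22.5, 22.7 and 17.7 TPM across Plcg2+/+ and 8.799, 7.34 and 9.28 across Plcg2-/- libraries and fell by 1.21 ± 0.15 log2 units (SE; limma adjusted p = 0.00306).

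Of the zinc importers of the Slc39 family, 2 of 12 fell and none rose, 16.7% called against the background of 20.9%. Slc39a6 had 37.0, 40.04 and 42.4 TPM across Plcg2+/+ and 24.5, 21.2 and 31.1 across Plcg2-/- libraries and fell by 0.63 ± 0.15 log2 units (SE; limma adjusted p = 0.0303). Slc39a2 was low, with 6.23, 3.48 and 7.04 TPM across Plcg2+/+ and 1.53, 1.01 and 1.93 across Plcg2-/- libraries, and fell by 1.38 ± 0.27 log2 units (SE; limma adjusted p = 0.0159). The abundant Slc39a1 and Slc39a7 did not pass, at 132 ± 5.94 in Plcg2+/+ and 134 ± 13.1 TPM in Plcg2-/- cells, and 148 ± 15.2 in Plcg2+/+ and 130.4 ± 5.71 TPM in Plcg2-/- cells (SD, n = 3 each; limma adjusted p = 0.963 and 0.291). Neither did Slc39a8 and Slc39a14, importers known from inflamed tissue (limma adjusted p = 0.748 and 0.728). Among the 6 zinc exporters of the Slc30 family none passed, against the same background. Slc30a4 came nearest at 3.73, 3.601 and 2.63 TPM across Plcg2+/+ and 1.43, 1.55 and 2.22 across Plcg2-/- libraries (limma adjusted p = 0.0578) and passed without Plcg2+/+ 3, after median-of-ratios scaling and with a constant prior variance (limma adjusted p = 0.0483, 0.0422 and 0.0424). Slc30a1, the zinc exporter gene of the cell surface, did not pass either (limma adjusted p = 0.656).

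Median-of-ratios scaling left 3 metal carriers higher and 5 lower, the further decreases being Slc30a4 and Slc30a6. Without Plcg2-/- 1, 2 metal carriers were called. Slc31a1 missed the threshold without Plcg2-/- 1 or Plcg2-/- 3 and with quantile normalization (limma adjusted p = 0.0556, 0.0511 and 0.0511). Slc31a2 missed the threshold without Plcg2-/- 1 (limma adjusted p = 0.0548). Slc39a6 missed the threshold without Plcg2+/+ 1, Plcg2+/+ 2, Plcg2+/+ 3, Plcg2-/- 1 or Plcg2-/- 2, with no filter on low values and with the Y-linked covariate (limma adjusted p = 0.0753, 0.0878, 0.0649, 0.115, 0.06005, 0.0633 and 0.0851). Slc39a2 missed the threshold without Plcg2+/+ 1 or Plcg2-/- 1 and with no filter on low values (limma adjusted p = 0.06602, 0.06805 and 0.0506). Exons of Slc39a2 overlap those of Mettl17 on the same strand by 151 bases, and Mettl17 had means of 25.6 TPM in Plcg2+/+ and 20.8 TPM in Plcg2-/-.

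**Figure D4:**
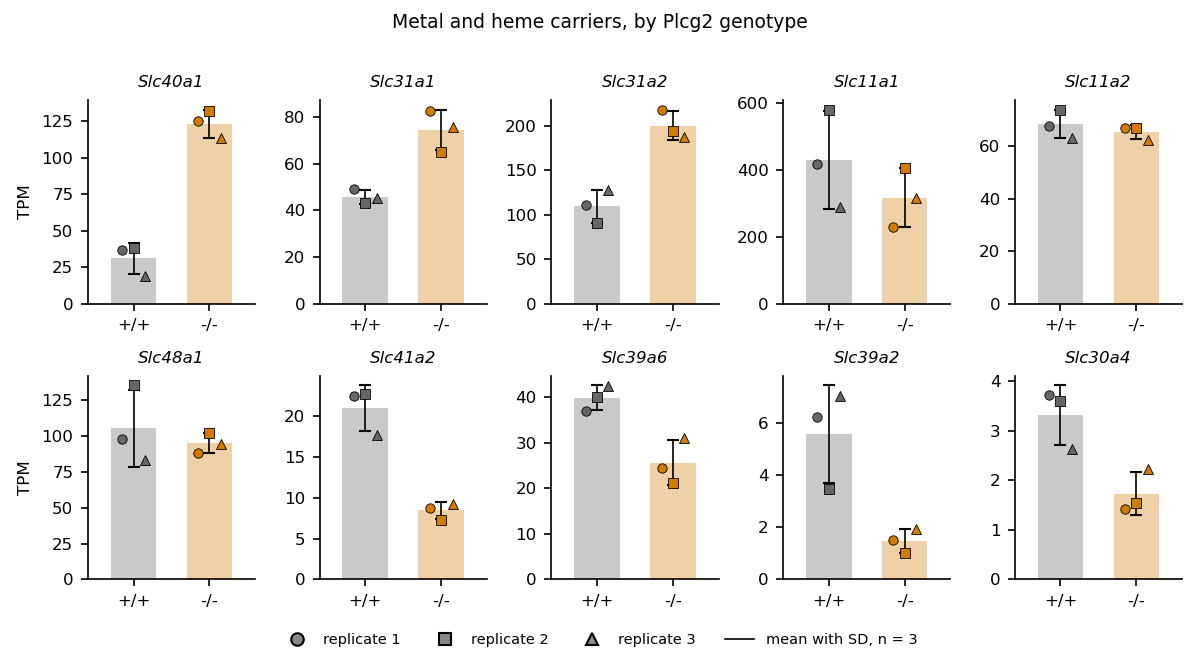
TPM of 10 metal and heme carriers by Plcg2 genotype (bars are means of 3 libraries, error bars SD, symbols single libraries). Slc40a1, Slc31a1 and Slc31a2 are higher and Slc41a2, Slc39a6, Slc39a2 and Slc30a4 lower in all Plcg2-/- libraries, Slc30a4 without passing the test, while Slc11a1, Slc11a2 and Slc48a1 overlap.

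Of the 37 mitochondrial carriers of the Slc25 family, 4 rose and none fell, 10.8% called against backgrounds of 15.6% for increases and 5.31% for decreases. Both leading increases were glutamate carriers. Slc25a22 (ENSMUSG00000019082.18, GRCm38 chromosome 7, positions 141429744 to 141437892, minus strand), which brings glutamate into the matrix with a proton, stood at 34.7, 25.7 and 27.1 TPM in the Plcg2+/+ and 91.4, 78.6 and 74.4 TPM in the Plcg2-/- cultures and rose by 1.46 ± 0.15 log2 units (SE; limma adjusted p = 0.00166). Slc25a12 (GRCm38 chromosome 2, positions 71271063 to 71367749, minus strand), which exchanges aspartate for glutamate in the malate and aspartate shuttle, stood at 21.4, 20.1 and 19.7 TPM in the Plcg2+/+ and 40.1, 36.9 and 39.5 TPM in the Plcg2-/- cultures and rose by 0.89 ± 0.10 log2 units (SE; limma adjusted p = 0.00215). Its relative Slc25a13 had 5.71, 5.77 and 6.27 TPM across Plcg2+/+ and 6.04, 4.41 and 8.16 across Plcg2-/- libraries (limma adjusted p = 0.936). The groups lay clearly apart for the first 2 genes and overlapped for the third.

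Slc25a5, an ADP/ATP carrier gene on the X chromosome, stood at 297, 241 and 359 TPM in the Plcg2+/+ and 546, 409 and 479 TPM in the Plcg2-/- cultures and rose by 0.68 ± 0.18 log2 units (SE; limma adjusted p = 0.0397). Slc25a45 had 36.6, 40.5 and 38.3 TPM across Plcg2+/+ and 55.3, 64.7 and 52.6 across Plcg2-/- libraries and rose by 0.56 ± 0.12 log2 units (SE; limma adjusted p = 0.0185). The other ADP/ATP carrier, Slc25a4, had 71.97 ± 12.2 in Plcg2+/+ and 80.9 ± 6.06 TPM in Plcg2-/- cells, and the phosphate carrier gene Slc25a3 538 ± 17.2 in Plcg2+/+ and 563 ± 28.6 TPM in Plcg2-/- cells (SD, n = 3 each; limma adjusted p = 0.404 and 0.698). Slc25a4 and Slc25a5 are near relatives, and sharing of reads between the pair was not tested.

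The citrate carrier gene Slc25a1, the acylcarnitine carrier gene Slc25a20 and the iron carrier genes Slc25a37 and Slc25a28 did not pass (limma adjusted p = 0.573, 0.305, 0.231 and 0.447). The family's median log2 difference was 0.19, equal to that of all tested genes to 2 decimals, and 15 of the 37 had all Plcg2-/- values above all Plcg2+/+ values, against 32.4% of tested genes. After median-of-ratios scaling 2 were higher, Slc25a22 and Slc25a12, and 2 lower, Slc25a25 and Slc25a43. Called Slc25 genes numbered 2 without Plcg2+/+ 1, without Plcg2-/- 1 or with the Y-linked covariate. Slc25a5 missed the threshold without Plcg2+/+ 1, Plcg2+/+ 2, Plcg2-/- 1 or Plcg2-/- 3, with no filter on low values, after median-of-ratios scaling, with quantile normalization, after rescaling without mitochondrially encoded genes, with a constant prior variance, with the block and median-of-ratios scaling together and with the Y-linked covariate (limma adjusted p = 0.113, 0.0969, 0.143, 0.116, 0.0922, 0.0794, 0.0765, 0.0664, 0.0517, 0.06102 and 0.07995). Slc25a45 missed the threshold without Plcg2+/+ 1 or Plcg2-/- 1, after median-of-ratios scaling, with quantile normalization, with the block and median-of-ratios scaling together and with the Y-linked covariate (limma adjusted p = 0.0702, 0.0681, 0.123, 0.206, 0.0585 and 0.0566).

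Among 21 carriers of inorganic ions, 4 rose and 2 fell, 28.6% called against the background of 20.9%. The largest increase of all 177 genes was that of Slc9a9 (ENSMUSG00000031129.9, GRCm38 chromosome 9, positions 94669909 to 95230445, plus strand), a sodium and proton exchanger gene of recycling endosomes. It stood at 5.19, 3.92 and 3.27 TPM in the Plcg2+/+ and 24.2, 43.4 and 30.5 TPM in the Plcg2-/- cultures and rose by 2.69 ± 0.24 log2 units (SE; limma adjusted p = 0.00116), so each Plcg2-/- value was several times the highest Plcg2+/+ value. Slc9a7, an exchanger gene of the trans-Golgi network on the X chromosome, had 4.59, 3.89 and 4.72 TPM across Plcg2+/+ and 10.1, 8.097 and 11.9 across Plcg2-/- libraries and rose by 1.02 ± 0.17 log2 units (SE; limma adjusted p = 0.00886). Slc9a5 and Slc9a8 were not called.

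Slc8a1, a sodium and calcium exchanger gene, had 12.2, 13.3 and 13.4 TPM across Plcg2+/+ and 22.2, 16.8 and 27.3 across Plcg2-/- libraries and rose by 0.70 ± 0.18 log2 units (SE; limma adjusted p = 0.0346). Slc26a2, a sulfate carrier gene, had 12.4, 12.7 and 11.9 TPM across Plcg2+/+ and 23.1, 16.8 and 23.8 across Plcg2-/- libraries and rose by 0.72 ± 0.15 log2 units (SE; limma adjusted p = 0.0195). Downward, the potassium and chloride cotransporter gene Slc12a4 had 62.4, 66.1 and 42.7 TPM across Plcg2+/+ and 33.02, 27.8 and 32.2 across Plcg2-/- libraries and fell by 0.84 ± 0.18 log2 units (SE; limma adjusted p = 0.0213). Slc26a6, an anion exchanger gene, had 42.3, 52.2 and 44.5 TPM across Plcg2+/+ and 34.8, 33.5 and 31.7 across Plcg2-/- libraries and fell by 0.46 ± 0.12 log2 units (SE; limma adjusted p = 0.0347). The sodium, potassium and chloride cotransporter gene Slc12a2, the bicarbonate carrier gene Slc4a7 and the phosphate carrier gene Slc20a1 did not pass (limma adjusted p = 0.8297, 0.5696 and 0.184). Slc20a1 passed as lower after median-of-ratios scaling, with quantile normalization and with the block and median-of-ratios scaling together (limma adjusted p = 0.0191, 0.00977 and 0.0336). After median-of-ratios scaling 2 ion carriers, Slc9a9 and Slc9a7, were higher and 3 lower. Slc9a7 missed the threshold without Plcg2-/- 1 (limma adjusted p = 0.0511). Slc8a1 missed the threshold without Plcg2+/+ 1, Plcg2+/+ 2, Plcg2+/+ 3, Plcg2-/- 1 or Plcg2-/- 3, with no filter on low values, after median-of-ratios scaling, with quantile normalization, after rescaling without mitochondrially encoded genes, with the block and median-of-ratios scaling together and with the Y-linked covariate (limma adjusted p = 0.111, 0.0927, 0.0607, 0.126, 0.0943, 0.0786, 0.0846, 0.0883, 0.0709, 0.0986 and 0.0755). Slc26a2 missed the threshold without Plcg2+/+ 1, Plcg2+/+ 2, Plcg2-/- 1 or Plcg2-/- 3, after median-of-ratios scaling, with the block and median-of-ratios scaling together and with the Y-linked covariate (limma adjusted p = 0.0686, 0.0589, 0.0899, 0.0745, 0.0506, 0.0741 and 0.0504). Slc12a4 missed the threshold without Plcg2+/+ 1, Plcg2+/+ 2, Plcg2-/- 1, Plcg2-/- 2 or Plcg2-/- 3 and with the Y-linked covariate (limma adjusted p = 0.0813, 0.0688, 0.0765, 0.05802, 0.0686 and 0.0566). Slc26a6 missed the threshold without Plcg2+/+ 1, Plcg2+/+ 2, Plcg2+/+ 3, Plcg2-/- 1, Plcg2-/- 2 or Plcg2-/- 3, with no filter on low values, with a constant prior variance and with the Y-linked covariate (limma adjusted p = 0.0664, 0.0822, 0.0507, 0.0962, 0.0643, 0.112, 0.05598, 0.0517 and 0.0979).

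Carriers of vitamins, choline and lipids had the lowest class median, -0.34, with 4 of 16 lower and 1 higher, 31.3% called against the background of 20.9%. Slc27a1, which encodes a fatty acid transport protein with acyl-CoA synthetase activity, stood at 78.6, 93.8 and 70.3 TPM in the Plcg2+/+ and 49.9, 45.7 and 45.2 TPM in the Plcg2-/- cultures and fell by 0.76 ± 0.13 log2 units (SE; limma adjusted p = 0.0105). Slc27a6, of the same family, had 29.98, 50.6 and 19.7 TPM across Plcg2+/+ and 9.68, 9.02 and 7.33 across Plcg2-/- libraries and fell by 1.74 ± 0.31 log2 units (SE; limma adjusted p = 0.0124). Its Plcg2+/+ values spread widely. Slc23a2, an ascorbate carrier gene, had 39.2, 40.5 and 31.9 TPM across Plcg2+/+ and 25.7, 18.6 and 24.8 across Plcg2-/- libraries and fell by 0.68 ± 0.16 log2 units (SE; limma adjusted p = 0.0287). The choline carrier-like gene Slc44a2 had 65.5, 66.98 and 68.3 TPM across Plcg2+/+ and 47.3, 36.4 and 52.9 across Plcg2-/- libraries and fell by 0.56 ± 0.15 log2 units (SE; limma adjusted p = 0.0389). Slc46a3, a lysosomal carrier gene, was the exception and rose, with 50.3, 67.5 and 48.3 TPM across Plcg2+/+ and 106, 109 and 104 across Plcg2-/- libraries, by 0.94 ± 0.14 log2 units (SE; limma adjusted p = 0.00702).

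Folate carrier genes Slc46a1 and Slc19a1 did not pass, at 15.7 ± 5.91 in Plcg2+/+ and 9.87 ± 1.93 TPM in Plcg2-/- cells, and 5.395 ± 0.164 in Plcg2+/+ and 5.04 ± 1.09 TPM in Plcg2-/- cells (SD, n = 3 each; limma adjusted p = 0.147 and 0.704), although Slc46a1 passed with the replicate block and with the block and median-of-ratios scaling together (limma adjusted p = 0.0328 and 0.0228). The acetyl-CoA carrier gene Slc33a1 had 21.1, 19.1 and 16.7 TPM across Plcg2+/+ and 14.3, 12.5 and 15.9 across Plcg2-/- libraries (limma adjusted p = 0.0851) and passed after median-of-ratios scaling and with quantile normalization (limma adjusted p = 0.03196 and 0.0276). Slc27a4 had 19.1, 20.9 and 20.2 TPM across Plcg2+/+ and 14.4, 17.7 and 17.3 across Plcg2-/- libraries (limma adjusted p = 0.145) and passed after median-of-ratios scaling, with quantile normalization and with the block and median-of-ratios scaling together (limma adjusted p = 0.0498, 0.0456 and 0.0373). Counts after median-of-ratios scaling were 1 higher and 7 lower. Slc27a6 missed the threshold without Plcg2+/+ 1, Plcg2-/- 1 or Plcg2-/- 3 (limma adjusted p = 0.0514, 0.0553 and 0.05504). Slc23a2 missed the threshold without Plcg2+/+ 1, Plcg2+/+ 2, Plcg2-/- 1, Plcg2-/- 2 or Plcg2-/- 3, with no filter on low values and with the Y-linked covariate (limma adjusted p = 0.0989, 0.0938, 0.0718, 0.0517, 0.0711, 0.06202 and 0.0804). Slc44a2 missed the threshold without Plcg2+/+ 1, Plcg2+/+ 2, Plcg2+/+ 3 or Plcg2-/- 1, with no filter on low values, with a constant prior variance and with the Y-linked covariate (limma adjusted p = 0.104, 0.102, 0.0745, 0.108, 0.0775, 0.05497 and 0.104). Slc46a3 missed the threshold with quantile normalization (limma adjusted p = 0.0507).

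The remaining class, 24 carriers of organic acids, peptides and other solutes with the Slc16 family among them, had 8 lower and 2 higher, 41.7% called against the background of 20.9%. Its largest decrease was that of Slc22a4 (ENSMUSG00000020334.6, GRCm38 chromosome 11, positions 53983123 to 54028090, minus strand), which encodes the ergothioneine carrier OCTN1. Slc22a4 stood at 23.1, 25.1 and 14.6 TPM in the Plcg2+/+ and 2.22, 5.08 and 4.24 TPM in the Plcg2-/- cultures and fell by 2.19 ± 0.29 log2 units (SE; limma adjusted p = 0.00427). Its relatives Slc22a5, a carnitine carrier gene, and Slc22a21 did not pass, at 7.96 ± 0.444 in Plcg2+/+ and 8.24 ± 0.705 TPM in Plcg2-/- cells, and 2.69 ± 0.653 in Plcg2+/+ and 1.77 ± 0.774 TPM in Plcg2-/- cells (SD, n = 3 each; limma adjusted p = 0.824 and 0.263). Slc66a2 stood at 60.3, 69.7 and 59.9 TPM in the Plcg2+/+ and 40.8, 35.5 and 38.1 TPM in the Plcg2-/- cultures and fell by 0.72 ± 0.11 log2 units (SE; limma adjusted p = 0.00762).

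Slc15a3, which encodes a histidine and peptide carrier of lysosomes, was the most abundant member to fall. It stood at 369, 349 and 317 TPM in the Plcg2+/+ and 233, 217 and 244 TPM in the Plcg2-/- cultures and fell by 0.57 ± 0.11 log2 units (SE; limma adjusted p = 0.0162). Its exons overlap those of Tmem132a on the opposite strand, which had means of 169.6 TPM in Plcg2+/+ and 95.1 TPM in Plcg2-/-, so without known strand the 2 signals cannot be told apart. Its relative Slc15a4, needed for signalling by endosomal nucleic acid receptors, had 62.8, 59.05 and 60.1 TPM across Plcg2+/+ and 104, 60.1 and 59.98 across Plcg2-/- libraries (limma adjusted p = 0.442), with 1 high Plcg2-/- library and the other 2 within the Plcg2+/+ range. Slc18a1, a vesicular monoamine carrier gene, had 4.57, 6.16 and 3.17 TPM across Plcg2+/+ and 1.35, 1.08 and 1.796 across Plcg2-/- libraries and fell by 1.20 ± 0.24 log2 units (SE; limma adjusted p = 0.0179). Slc22a17 had 24.9, 19.6 and 23.6 TPM across Plcg2+/+ and 17.4, 12.7 and 15.8 across Plcg2-/- libraries and fell by 0.55 ± 0.15 log2 units (SE; limma adjusted p = 0.0466). Slc17a5, the lysosomal sialic acid exporter gene, did not pass (limma adjusted p = 0.3297). After median-of-ratios scaling no carrier of this class was higher and 8 were lower. Slc15a3 missed the threshold without Plcg2+/+ 1 or Plcg2-/- 1 (limma adjusted p = 0.06602 and 0.0662). Slc18a1 missed the threshold without Plcg2+/+ 1, Plcg2+/+ 2 or Plcg2-/- 1, with no filter on low values and with the Y-linked covariate (limma adjusted p = 0.0657, 0.05097, 0.0738, 0.0565 and 0.0517). Slc22a17 missed the threshold without Plcg2+/+ 1, Plcg2+/+ 2, Plcg2+/+ 3, Plcg2-/- 1, Plcg2-/- 2 or Plcg2-/- 3, with no filter on low values, with a constant prior variance and with the Y-linked covariate (limma adjusted p = 0.142, 0.0612, 0.0932, 0.0856, 0.0928, 0.115, 0.0961, 0.0607 and 0.111).

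Of 8 carriers of nucleosides and nucleotide sugars, 1 rose and none fell, 12.5% called against the background of 20.9%. This was Slc35a4, with 36.8, 37.3 and 43.5 TPM across Plcg2+/+ and 76.1, 55.4 and 64.3 across Plcg2-/- libraries, which rose by 0.71 ± 0.14 log2 units (SE; limma adjusted p = 0.0177). The abundant nucleoside carrier gene Slc29a1 had 174, 185 and 191 TPM across Plcg2+/+ and 178, 179 and 231 across Plcg2-/- libraries (limma adjusted p = 0.677), with overlapping groups, and its lysosomal relative Slc29a3 did not pass (limma adjusted p = 0.671). The CMP-sialic acid carrier gene Slc35a1 had 15.8, 14.8 and 14.7 TPM across Plcg2+/+ and 12.7, 11.6 and 13.1 across Plcg2-/- libraries (limma adjusted p = 0.126) and passed after median-of-ratios scaling, with quantile normalization and with the block and median-of-ratios scaling together (limma adjusted p = 0.0273, 0.02404 and 0.0449). Slc35a2, the UDP-galactose carrier gene, had 33.9, 33.4 and 31.6 TPM across Plcg2+/+ and 24.8, 20.5 and 27.9 across Plcg2-/- libraries (limma adjusted p = 0.0620) and passed over genes with a mean of at least 5 TPM, after median-of-ratios scaling, with quantile normalization, after rescaling without mitochondrially encoded genes and with the block and median-of-ratios scaling together (limma adjusted p = 0.0471, 0.0183, 0.0153, 0.0346 and 0.0358). After median-of-ratios scaling 1 was higher and 2 lower. Slc35a4 missed the threshold without Plcg2+/+ 1, Plcg2+/+ 2, Plcg2-/- 1 or Plcg2-/- 3 and with the block and median-of-ratios scaling together (limma adjusted p = 0.0696, 0.0602, 0.0674, 0.0631 and 0.05404). Exons of Slc35a4 overlap Apbb3 on the opposite strand, which had means of 12.3 TPM in Plcg2+/+ and 16.6 TPM in Plcg2-/-.

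Several of the members that rose work inside the endosomal system. Of 17 carriers known from endosomes, lysosomes or the trans-Golgi network, a list drawn up after the values were seen, 5 rose (Slc9a9, Slc9a7, Slc2a6, Slc31a2 and Slc46a3) and 1 fell (Slc15a3), against backgrounds of 15.6% and 5.31%. After median-of-ratios scaling 5 were higher and 2 lower. The list's median log2 difference was 0.09, below the 0.19 of all tested genes. By chromosome, 9 members are X-linked, of which Slc9a7 and Slc25a5 rose and Slc6a8 fell. Over all tested genes the backgrounds were 15.6% for increases and 5.31% for decreases. Slc6a8 and Slc9a7 were also called with the Y-linked covariate (limma adjusted p = 0.00813 and 0.0333), and Slc25a5 was not (limma adjusted p = 0.07995).

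Other transport genes are given for comparison, from lists not chosen by how each gene moved. These lists were nevertheless drawn up with earlier results of these data known, so they are not independent of the outcome. Of 26 tested solute carriers that go by other names, 2 rose and 2 fell, 15.4% called against 20.9% of all tested genes. Among them were Mpc1, a subunit of the mitochondrial pyruvate carrier, which rose from 159.7 ± 27.1 to 256 ± 11.4 TPM, and Flvcr1, a choline and heme carrier gene, which fell from 68.2 ± 12.7 to 24.7 ± 2.01 TPM (SD, n = 3 each; limma adjusted p = 0.0203 and 0.00221). Sgk1, a kinase that keeps carriers at the cell surface, fell from 479.8 ± 9.91 to 189 ± 30.1 TPM (limma adjusted p = 0.00166), one of 2 decreases and no increase among 14 partners and regulators, 14.3% called. Of 3 tested Slco genes, Slco4a1 fell from 508 ± 127 to 159 ± 46.4 TPM and Slco3a1 rose from 1.19 ± 0.605 to 4.42 ± 0.483 TPM (limma adjusted p = 0.00768 and 0.0135). Of 29 ABC transporters, 4 rose and 3 fell, and of 19 V-ATPase subunits, 3 and 2, against backgrounds of 15.6% and 5.31%. These became 1 and 4, and 0 and 5, after median-of-ratios scaling, against 7.71% and 7.85%. Mpc1 missed the threshold without Plcg2+/+ 1, Plcg2-/- 1, Plcg2-/- 2 or Plcg2-/- 3, with quantile normalization, with the block and median-of-ratios scaling together and with the Y-linked covariate (limma adjusted p = 0.0639, 0.0799, 0.0522, 0.0629, 0.05603, 0.0787 and 0.0651). Slco3a1 missed the threshold without Plcg2-/- 1 (limma adjusted p = 0.0639).

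Some carriers well known in brain cells were under the limit of 1 TPM. Slc2a5, the fructose carrier gene used as a microglial marker, had 0.355, 0.0647 and 0.0964 TPM across Plcg2+/+ and 0.0457, 0.3601 and 0.4698 across Plcg2-/- libraries. The astrocytic glutamate carrier genes Slc1a2 and Slc1a3 had means of 0.418 and 0.625 TPM in Plcg2+/+ and 0.796 and 0.989 TPM in Plcg2-/-. Just inside the limit were Slc18a2, Slc6a13, Slc2a3 and Slc1a4 at 1.005, 1.04, 1.05 and 1.08 TPM over the 6 libraries. Just outside it were Slc10a1, Slc39a12, Slc25a18 and Slc1a1 at 0.966, 0.955, 0.863 and 0.819 TPM. Of the 159 rows under the limit, 1 had a genotype mean of at least 1 TPM.

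**Figure D5:**
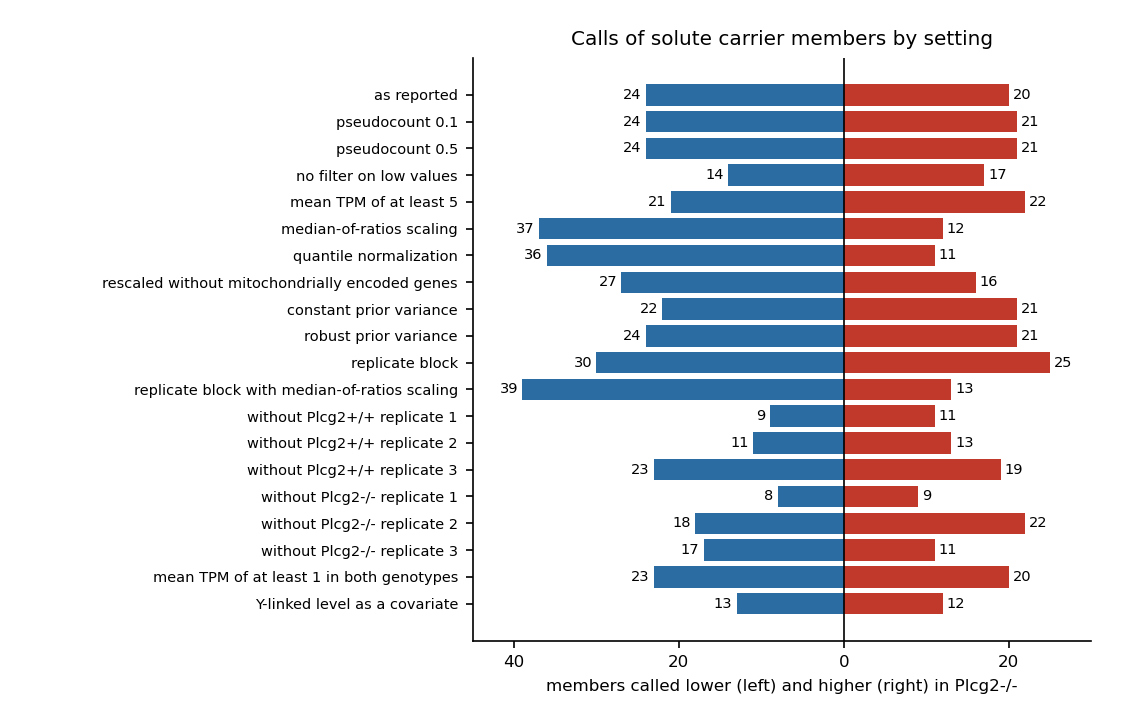
Number of solute carrier genes called lower (blue, left) and higher (red, right) in Plcg2-/- microglia in the fit as reported and in 19 others (y axis), with all rows of the name form counted where no filter was set. Median-of-ratios scaling gives 37 lower and 12 higher against 24 and 20 as reported, and leaving out Plcg2-/- 1 gives 8 and 9.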

How the data were processed

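RNA of 6 microglial cultures, 3 Plcg2+/+ and 3 Plcg2-/-, was sequenced as 150-bp paired reads from polyA libraries, per the labels' protocols. The authors deposited 1 table of TPM values (54347 rows, 6 library columns of equal sum). The submitters' processing notes name Salmon 1.3.0, DESeq2 1.30.1, R 4.0.4 and GRCm38.p6, with no roles. The annotation release and the use of strand are not given in the sources used. TPM keeps no depth, so no counting error can be given.

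The 177 members were all rows named Slc, a number, a and a number with a mean of at least 1 TPM. Members and lists were chosen with earlier results of these data known. Positions are from GENCODE M21, which matched all 336 rows of that name form. Values were taken as log2(TPM + 1), a scale that understates changes of low genes. The 12652 genes with a mean of at least 1 TPM were fitted with limma 3.58.1 in R 4.3.3, with a variance prior that follows the mean (4 residual and 2.97 prior degrees of freedom), a two-sided test, Benjamini-Hochberg adjustment over all of them and a threshold of 0.05. The fit was tested on simulated data. Summaries and plots were made in Python 3.11.15 with pandas 2.3.3, numpy 2.4.6 and matplotlib 3.10.9.

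Alternatives were pseudocounts of 0.1 and 0.5, no filter or a mean of at least 5 TPM, median-of-ratios scaling, quantile normalization, TPM rescaled without mitochondrially encoded genes, a constant or robust prior, the replicate number as a block with and without median-of-ratios scaling, and each library left out. A filter on both genotypes' means and the summed level of 4 Y-linked genes as a covariate were chosen after seeing the data. Libraries of the same replicate number deviated together from their genotype means (correlations across genes of 0.295, 0.193 and 0.147 for numbers 1, 2 and 3; all above 0.1). By that check the numbers may pair the libraries, but the correlations are low and no label says what a number marks. The reported p-values come from the unpaired fit, with the block as an alternative.

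Genes were named by a rule. It took 53 preset members (51 tested), the 12 largest called differences each way among genes with a mean of at least 5 TPM and no overlap, up to 3 called members with the smallest p each way in each of 8 substrate classes, and members near the limit. Other lists were named by at most 3 called genes each way. Called members outside it (Slc7a4, Slc8a1, Slc18a1, Slc22a17 and Slc44a2) were added after their values were seen. So were some relatives of named genes and some, not all, of the members past the threshold only in another fit. Some genes are not reported here.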

Additional observations from a re-analysis of the deposited data

How the results depend on the processing

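Calls of higher members numbered 20 as reported, 11 after quantile normalization, 12 after median-of-ratios scaling, 13 with the block and median-of-ratios scaling together, and 12 with the Y-linked covariate. Calls of lower members numbered 24, 37 after median-of-ratios scaling, 39 with the block and that scaling, and 13 with the Y-linked covariate. With no filter on low values 14 rows of the name form were lower, 13 of them members. Leaving out 1 library gave 9 to 22 higher and 8 to 23 lower members. The replicate block gave 25 and 30, gained 11 calls and lost 0 of the 44, and took called amino acid carriers from 8 to 13. With the Y-linked covariate 5 amino acid, 2 Slc25 and 2 sugar carriers were called. Leaving out 1 library gave 4 to 8 called amino acid carriers, 2 to 6 called metal carriers, 2 to 5 called Slc25 carriers and 2 to 5 called sugar carriers. Counts from fits that left out 1 library have no share of all tested genes beside them. The cause of these changes was not tested, except that fits without a library hold fewer samples. Over 83 named genes and their alternatives, 1325 of 1567 values stayed on the same side of the threshold in the same direction, 169 lost and 30 gained a call, and 43, of 16 genes, changed sign. None of these 16 was called and none of the 43 passed the threshold. After median-of-ratios scaling, with the same values when the replicate block was added, the sign changed to -0.10 for Slc12a2, -0.023 for Slc25a1, -0.064 for Slc25a28, -0.15 for Slc25a3, -0.037 for Slc25a4, -0.12 for Slc29a3, -0.0091 for Slc36a1 and -0.072 for Slc4a7. After quantile normalization, the sign changed to -0.047 for Slc12a2, -0.061 for Slc15a4, -0.11 for Slc25a1, -0.087 for Slc25a28, -0.16 for Slc25a3, -0.13 for Slc25a4, -0.21 for Slc29a3, -0.058 for Slc36a1 and -0.066 for Slc4a7. After rescaling without mitochondrially encoded genes, the sign changed to -0.033 for Slc12a2, -0.069 for Slc25a3 and -0.040 for Slc29a3. With the Y-linked covariate, the sign changed to -0.026 for Slc12a2. Over the 6 fits that left out 1 library, values that changed sign ranged over -0.13 to 0.23 for Slc12a2, -0.014 to 0.38 for Slc15a4, -0.22 to 0.042 for Slc19a1, -0.39 to 0.062 for Slc30a1, -0.13 to 0.010 for Slc37a4, -0.11 to 0.069 for Slc38a9, -0.21 to 0.050 for Slc39a8, -0.28 to 0.070 for Slc48a1, -0.0022 to 0.20 for Slc4a7 and -0.11 to 0.078 for Slc7a1. With 3 libraries a genotype, Dixon's test for a library apart from its group was not run. TPM without depth limits what can be said of the low members, and the strand of overlapping genes is not known.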

Other observations

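Summed by substrate class, the 37 Slc25 genes took 1588, 1454 and 1676 TPM in Plcg2+/+ and 2076, 1875 and 1905 TPM in Plcg2-/- libraries, although 4 of them were called. The ratio of the genotype means was 1.24, and 1.07 after median-of-ratios scaling. On both scales the genotypes did not overlap, but after scaling they nearly met, at 1644 to 1707 in Plcg2+/+ and 1719 to 1891 in Plcg2-/-. Slc25a5 alone had means of 299 TPM in Plcg2+/+ and 478 TPM in Plcg2-/- as deposited. The 30 amino acid carriers summed to 1836, 1969 and 1716 TPM in Plcg2+/+ and to 1529.6, 1485 and 1690.4 TPM in Plcg2-/- libraries, a ratio of 0.852, and 0.731 after that scaling. The 24 carriers of organic acids, peptides and other solutes summed to 776 to 791 TPM in Plcg2+/+ and 547 to 633 TPM in Plcg2-/-, and the 16 carriers of vitamins, choline and lipids to 355 to 462 and 311 to 342 TPM. Their ratios were 0.768 and 0.820, and 0.659 and 0.701 after scaling, with no overlap on either scale. Sums of sugar carriers overlapped as deposited, at 389 to 448 and 396 to 400.02 TPM, and were lower in every Plcg2-/- library after scaling, at 396 to 506 and 358 to 384. Metal, inorganic ion and nucleoside carrier sums overlapped on both scales. Few abundant genes weigh most in such sums, which were not tested.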
